A study of Rattus norvegicus with 10 samples.

Results

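The core circadian clock genes are described here in the cirrhotic liver of the rat, as the 10 genes Bmal1, Npas2, Clock, Cry1, Cry2, Per1, Per2, Per3, Nr1d1 and Nr1d2 out of 14217 genes measured. The genes were chosen by their place in the clock, with earlier results of these values known, and where several probe sets with a single symbol read a gene, the one whose signal varied most across the 10 arrays was kept. The spread over the rats, the order of the rats and the likeness of the members are therefore given as descriptions.

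Whole livers came from 10 male Wistar rats, all made cirrhotic by inhaled CCl4, a hepatotoxin. The vehicle group of 5 rats received vehicle once a week, and the other 5 rats received CVX-060, an inhibitor of the vascular ligand Ang2, at 10 mg/kg in saline through the tail vein once a week for 4 weeks. Total RNA of each frozen liver was hybridised to its own Affymetrix GeneChip Rat Genome array, and values are log2 signals per probe set, normalised between arrays by the authors. The labels call the rats biological replicates, so p-values measure the spread between rats, and precision is limited by the number of arrays. Cirrhosis was shared by both groups, and no healthy liver was analysed here. The age of the rats and the hour at which livers were taken are not given in the sources used here.

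The clock of a liver cell is a transcriptional feedback loop. BMAL1 pairs with CLOCK or its paralogue NPAS2 and activates the Per and Cry genes, whose proteins return to the nucleus and repress that pair. The same pair also activates Nr1d1 and Nr1d2, which encode the repressors REV-ERB alpha and beta, and these compete with ROR activators on Bmal1. In rodent liver, transcripts of Bmal1, Clock and Npas2 reach their peak at a time of day far from the peak of Nr1d1, Per3 and the output gene Dbp.

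Short stretches of the RefSeq promoter windows (GRCr8, from 250 bases before to 50 bases after an annotated start) are shown to locate the elements through which this loop is known to run. Of the 10 genes, 9 had a window in the table, with 11 windows among them. The letters CACGTG (E-box), CACGTT (a variant E-box, which shares 5 letters with the first), TAGGTCA (an element of the kind bound by ROR and REV-ERB) and TTATGTA (the core of a D-box, bound by Dbp and its relatives) were searched on both strands. Capitals mark the matched letters, read on the strand of the gene, so that a match on the opposite strand appears as its reverse complement.
Bmal1, chr1:176766301-176766330, plus strand, TAGGTCA beginning 16 bases before an annotated start inside the outer bounds of the gene: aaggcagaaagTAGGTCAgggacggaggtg
Per2, chr9:99497038-99497067, minus strand, CACGTT beginning 62 bases before an annotated start inside the outer bounds of the gene: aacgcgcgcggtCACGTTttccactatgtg
Per2, chr9:99497167-99497196, minus strand, TTATGTA beginning 192 bases before the same start of Per2: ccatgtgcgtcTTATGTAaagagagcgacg
Nr1d1, chr10:84229628-84229657, minus strand, CACGTG beginning 191 bases before an inner annotated start: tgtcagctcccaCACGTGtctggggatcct
Nr1d1, chr10:84231969-84231998, minus strand, CACGTT on the opposite strand: cgcatagagctcAACGTGcccgctgctgga
Cry2, chr3:98860632-98860661, minus strand, CACGTT on the opposite strand: acacatggtgggAACGTGagggggcggggc

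CACGTG was present in 6.42% of all 33469 windows and in those of 1 of the 9 genes, Nr1d1. CACGTT was present in 4.83% of windows and in 3 of the 9 genes. TAGGTCA was present in 2.63% of windows and among these genes in Bmal1, and TTATGTA in 2.82% and among these genes in Per2. The percentages count windows and the other figures count genes, some with more than 1 window, so they are not directly comparable. A match is a description of the letters, and a gene without one lacks only these letters in this window.

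The paper kept 2 replicates of each treatment for its own analysis after quality control, while all 10 arrays are used here. Among the 10 rats, 2 stood apart over all genes, and results are given with all rats and, where said, without these. Vehicle rat 2 and CVX-060 rat 5 had scores of 34.5 and 35.5 on the first principal component of all genes, which held 35.4% of the variance, whereas the other 8 rats lay between -26.2 and 9.74. The mean log2 signal of 4 liver genes usually higher in males (Cyp2c11, Cyp2c13, Cyp3a2 and Cyp2a2) was 11.3 in vehicle rat 2 and 12.3 in CVX-060 rat 5, against 13.1 to 13.5 in the others, and that of 4 genes usually higher in females (Cyp2c12, A1bg, Sult2a1 and Sult2a2) was 7.96 and 7.69, against 4.98 to 6.05. The higher mean of the second list came from Cyp2c12 and Sult2a2, for which vehicle rat 2 and CVX-060 rat 5 were the 2 highest rats. A1bg and Sult2a1 were above background in 0 rats, and for both genes these 2 rats lay within the range of the others. Eif2s3y and Uty, the 2 Y-linked genes measured, were above background in all rats. Across genes, which are not independent of each other, arrays correlated at 0.967 to 0.992. Hepatocyte markers were above background in all rats for 9 of the 9 measured, as the tissue label has it. Background was set on each array at the 95th percentile of 31 probe sets for chemosensory receptors (olfactory, vomeronasal and trace amine), which liver does not use, and lay between 5.48 and 5.85.

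Bmal1, Npas2 and Clock, the activators of the loop, differed more from rat to rat than between the groups. Bmal1 (chr1:176766222-176864741), which encodes the obligate partner of the activating pair, had log2 signals of 7.90, 7.95, 5.13, 4.87 and 4.88 in vehicle rats 1 to 5. In CVX-060 rats 1 to 5 it had 8.38, 8.75, 8.17, 5.75 and 5.21. Vehicle rats 1 and 2 and CVX-060 rats 1, 2 and 3 were high, the other 5 rats were not above background, and no rat lay between 5.75 and 7.90. With background at the 90th percentile in place of the 95th, all 10 rats were above it. The range over the 10 rats was 3.87 on the log2 scale as measured, and the lowest rat above background was at least 4.16-fold higher than the highest background level among the 5 rats not above it. By its SD within groups Bmal1 ranked 29 of the 14217 genes.

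Npas2 (chr9:48959225-49138036), which can take the place of Clock in the pair, had log2 signals of 4.50, 7.71, 4.93, 4.12 and 3.93 in vehicle rats 1 to 5. The CVX-060 rats had 7.96, 7.29, 7.92, 3.90 and 4.92. Npas2 was above background in vehicle rat 2 and in CVX-060 rats 1, 2 and 3 and in no other rat, so that vehicle rat 1, high for Bmal1, was low for Npas2. Its range was 4.06 on the log2 scale as measured, and the lowest rat above background was at least 2.72-fold higher than the highest background level among the 6 rats not above it. Its SD within groups ranked 26 among all genes.

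Clock (chr14:32262747-32346872), the other partner of BMAL1, had 8.90, 9.18, 8.41, 8.18 and 8.21 in the vehicle rats and 9.21, 9.25, 8.99, 8.60 and 8.41 in the CVX-060 rats. The same 5 rats were highest for Clock as for Bmal1, but the range was 1.07 on the log2 scale, and all 10 rats were above background. In whole liver, fewer cells of a type and less RNA per cell cannot be told apart for these or any later values.

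**Figure D1:**
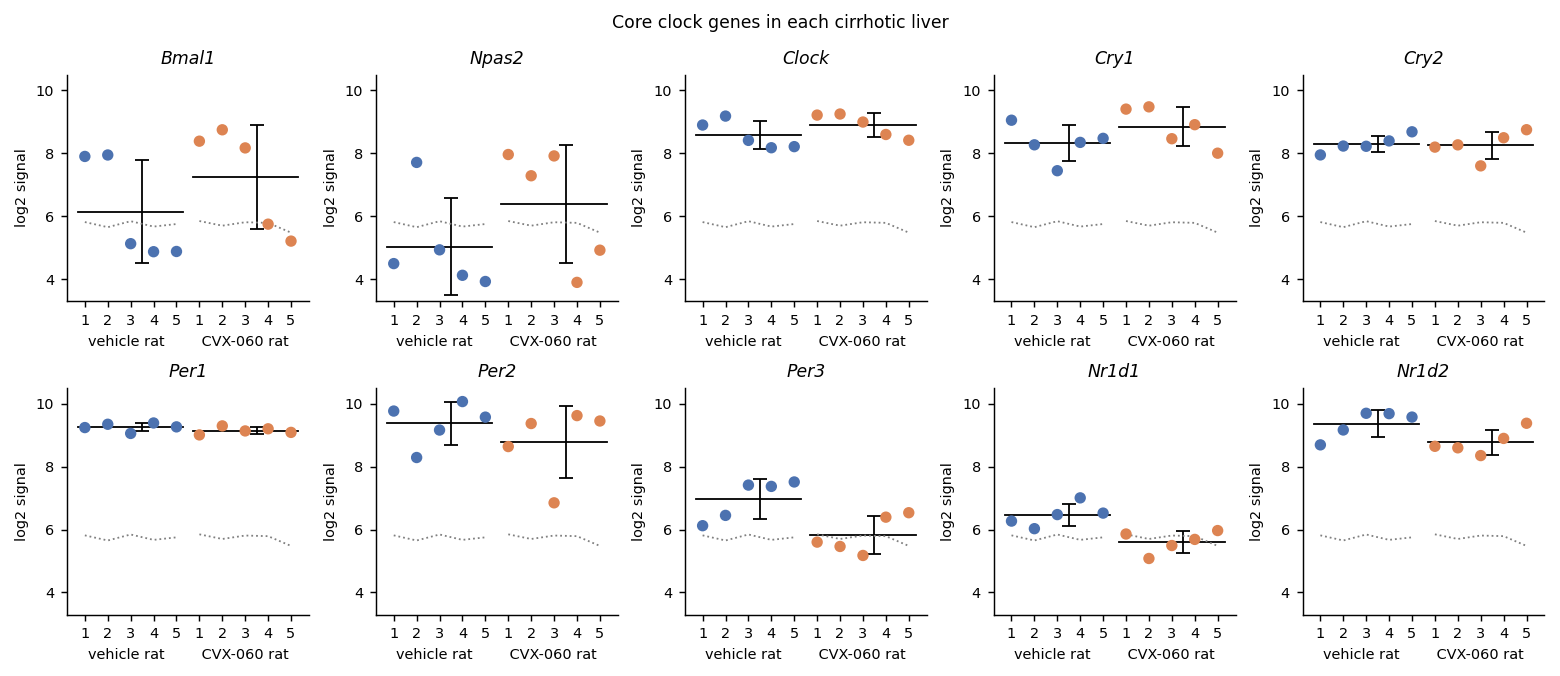
Log2 signal (y axis) of each of the 10 clock genes in vehicle rats 1 to 5 (blue) and CVX-060 rats 1 to 5 (orange), with the group mean as a horizontal line, ± 1 SD as the bar and the background level of each array as the dotted line. Bmal1 and Npas2 split the rats into a high and a low set within both groups, and Nr1d1 is the gene whose groups do not overlap.

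The Cry and Per genes, which encode the repressors of the activating pair, ranged from nearly even to widely spread. Cry1 (chr7:20417526-20481791) had log2 signals of 9.05, 8.27, 7.45, 8.34 and 8.47 with vehicle and 9.40, 9.47, 8.46, 8.91 and 8.0 with CVX-060. Cry2 (chr3:98830479-98860437) had 7.95, 8.23, 8.22, 8.39 and 8.68 with vehicle and 8.19, 8.27, 7.60, 8.49 and 8.75 with CVX-060. The lowest rat for Cry1 was vehicle rat 3 and for Cry2 CVX-060 rat 3, and both groups overlapped for both genes.

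Per1 (chr10:54299002-54313804), a period gene that also responds to glucocorticoid and cAMP signals, was the evenest member. Its log2 signals were 9.24, 9.34, 9.05, 9.38 and 9.26 with vehicle and 9.00, 9.29, 9.13, 9.20 and 9.08 with CVX-060, a range of 0.38. Per1 ranked 11157 of 14217 genes by SD within groups, while the 9 other members had an SD above the median of all genes. That median was 0.18, and the median over the members was 0.51.

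Per2 (chr9:99454828-99497069), a period gene with both a CACGTT and a TTATGTA match in the windows shown above, had 9.76, 8.29, 9.16, 10.06 and 9.57 with vehicle. With CVX-060 it had 8.63, 9.37, 6.85, 9.62 and 9.45. CVX-060 rat 3 lay below all others, and the range of 3.22 (9.29-fold) was the third widest among the members. A second probe set of Per2, above background in all rats, had a range of 0.75, and vehicle rat 2 was its lowest rat.

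Per3 (chr5:166740914-166778243), the period gene not needed for the loop to run, had 6.12, 6.45, 7.41, 7.37 and 7.51 with vehicle and 5.60, 5.46, 5.18, 6.39 and 6.53 with CVX-060. Vehicle rats 3, 4 and 5 were the 3 highest, and CVX-060 rats 1, 2 and 3 were not above background. Of the vehicle rats, the 2 lowest were those with high Bmal1.

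Nr1d1 (chr10:84224599-84231812), which encodes REV-ERB alpha, had log2 signals of 6.27, 6.03, 6.47, 7.01 and 6.52 with vehicle and 5.86, 5.08, 5.49, 5.69 and 5.97 with CVX-060. Every vehicle rat was above every CVX-060 rat, although the gap between the nearest rats, vehicle rat 2 and CVX-060 rat 5, was small. CVX-060 rats 2, 3 and 4 were not above background, and the other 7 rats were. Nr1d2 (chr15:9955034-9981329), which encodes REV-ERB beta, had 8.69, 9.16, 9.69, 9.68 and 9.57 with vehicle and 8.64, 8.59, 8.35, 8.89 and 9.38 with CVX-060. CVX-060 rat 5 lay within the range of the vehicle rats and the groups overlapped.

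The order of the rats was compared between genes by the mean difference in rank over the 10 rats. This measure is 0 for the same order and reaches 5, its largest value, when the 5 rats highest for one gene are the 5 lowest for the other. Genes are described by it with no test, since the rats are shared and the members were chosen with this pattern known. For Bmal1 and Npas2 the order among the 5 and 6 rats not above background was read from signals at that level and is uncertain. For Bmal1 these 5 rats stood in the same order as for Clock, which was above background in all 10 rats. Clock was at 0.2 from Bmal1 (0.8 after quantile normalization was applied again), Npas2 at 1.8 and Cry1 at 2.2, against a median of 3.4 over 14216 genes. Per1 was at 3.2, near that median. Cry2, Per2 and Nr1d1 were at 4.6 and Per3 and Nr1d2 at 4.8, so that 5 of the 9 other members were at 4.6 or more, as were 7.32% of all genes.

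**Figure D2:**
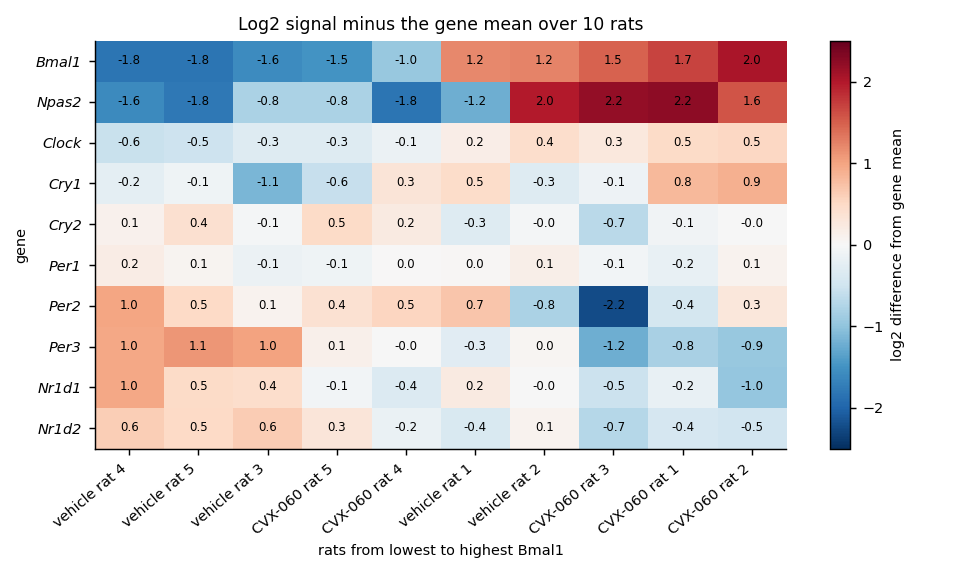
Log2 signal minus the mean of the gene over 10 rats (colour and printed value) for the 10 clock genes (rows), with the rats (columns) ordered from the lowest to the highest Bmal1. Bmal1 and Clock pass from low to high from left to right, as does Npas2 apart from vehicle rat 1, while Per3, Nr1d1 and Nr1d2 are higher on the left.

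Within the opposed set, Per3 and Nr1d2 were at 0.4 from each other, and Nr1d1 was at 1.4 from either. Npas2 and Per2 were at 5.0, the largest value possible, whereas Npas2 and Nr1d1 were at 4.2. The 5.0 depends on Npas2 being higher in vehicle rat 3 (4.93) than in CVX-060 rat 5 (4.92), and neither signal was above background. It is also a value of 1 probe set of Per2. In the second, vehicle rat 3 (7.42) lay above CVX-060 rat 4 (7.34) and CVX-060 rat 5 (7.36). Cry2 was at 2.0 from both Per2 and Per3. Cry1, though a repressor like Cry2, was at 4.0 from it and at 4.8 from Per3 and Nr1d2.

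**Figure D3:**
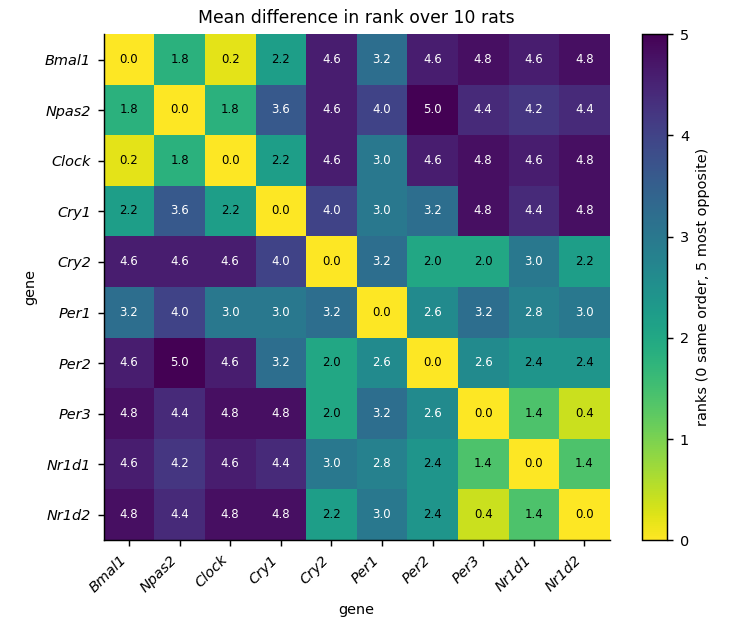
Mean difference in rank over 10 rats for each pair of clock genes (colour and printed value, in ranks). Bmal1 and Clock are nearest at 0.2, Per3 and Nr1d2 lie at 0.4, and Npas2 and Per2 have the largest value at 5.0. That value depends on the order of rats whose Npas2 signal was not above background.

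Correlations were computed for the 21 pairs of the 7 genes that did not split the rats into separate clusters, which leaves out Bmal1, Npas2 and Per3. They are given without p-values, because the members were chosen with their likeness known. Nr1d1 and Nr1d2 varied together over the 10 rats (Pearson r = 0.797, Spearman rho = 0.842). Without vehicle rat 4 and CVX-060 rat 2, the 2 rats farthest from the median of Nr1d1, r was 0.761, and with the group means removed it was 0.63. Clock and Nr1d2 were opposed (r = -0.815, rho = -0.830), with r of -0.697 without vehicle rats 4 and 5 and -0.791 with the group means removed. Clock and Nr1d1 had r = -0.734 and rho = -0.794, and r was -0.517 without vehicle rats 4 and 5 and -0.753 with the group means removed. Cry1 and Nr1d2 had r = -0.720 and rho = -0.697. Their r was -0.578 without vehicle rat 3 and CVX-060 rat 2 and -0.633 with the group means removed. Cry2 correlated with Per2 (r = 0.683, rho = 0.467) and with Nr1d2 (r = 0.660, rho = 0.515). Without CVX-060 rats 3 and 5 r was 0.243 and 0.480, and with the group means removed it was 0.705 and 0.803. In the 15 other pairs r lay closer to 0.

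Other genes came close to the order of Bmal1. Among the 8717 genes above background in at least 5 rats, the nearest were Cdkn1a, which encodes the cell cycle inhibitor p21, and Clock, both at 0.2. Lgalsl followed at 0.6, and Rnf125 and Leo1 at 1.0. Cdkn1a had 9.16, 9.19, 7.85, 7.14 and 8.12 with vehicle and 9.71, 10.01, 9.51, 8.56 and 8.19 with CVX-060, and the 5 rats high for Bmal1 were the 5 highest for it. At the opposite end, 236 genes (1.66%) were at 5.0, and those with the largest SD among the eligible were Dbp, Hsd17b2, Kcnj15, Amigo3 and Usp2. Kcnj15 was above background only in the 5 rats low for Bmal1, so it was eligible only through the rats in which it was high. Dbp, a PAR bZIP activator under direct control of the BMAL1 pair, had 7.01, 6.76, 9.62, 10.04 and 9.88 with vehicle and 6.12, 5.84, 5.91, 9.33 and 9.86 with CVX-060. No rat lay between 7.01 and 9.33, and the 5 rats low for Dbp were the 5 high for Bmal1. Hsd17b2, a steroid dehydrogenase gene, spanned 8.71 to 13.06, and Usp2, which encodes a ubiquitin protease that acts on clock proteins, 7.24 to 9.53.

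**Figure D4:**
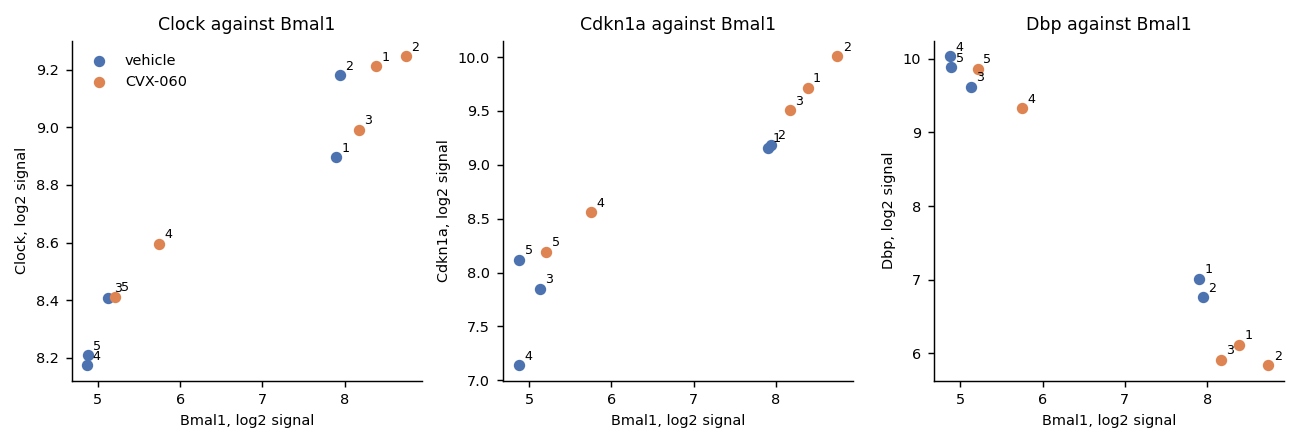
Log2 signal of Clock, Cdkn1a and Dbp (y axes) against that of Bmal1 (x axis) in 5 vehicle rats (blue) and 5 CVX-060 rats (orange), numbered by rat. Each panel holds 5 rats at low and 5 at high Bmal1, both with rats of either group, and Dbp is above 9 in the first 5 and at 7.01 or below in the others.

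CVX-060 was then compared with vehicle, which asks whether inhibition of Ang2 altered clock transcripts in cirrhotic liver. Of the 10 clock genes, 4 were higher and 6 lower with CVX-060, with a median difference of -0.07 on the log2 scale, against 7474 higher, 6742 lower and a median of 0.01 over all genes. None passed an adjusted p of 0.05 in limma (0 of 10, background 0%), with an adjusted p of 1.0 for each, and 0 of all 14217 genes passed it, of which 347 had an unadjusted p under 0.05. At an unadjusted p under 0.05 were 3 of 10, Nr1d1, Per3 and Nr1d2, all lower, where 2.44% of all genes lay under that level, 1.17% lower and 1.27% higher. Since these 3 genes shared an order of rats, they are not 3 separate observations. The members were chosen with earlier results of these values known, so the counts are descriptions and no test was made over the list. The p-values of single members, here and below, do not allow for that choice.

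Nr1d1 had a mean log2 signal of 6.46 ± 0.36 (SD, n = 5) in the vehicle group and 5.62 ± 0.35 (SD, n = 5) in the CVX-060 group. The difference was -0.84 (standard error 0.20, 95% interval -1.29 to -0.39), with an unadjusted limma p of 0.0018. Since Nr1d1 was above background in 2 of the 5 CVX-060 rats, the size of this difference rests in part on signals at background. That count depends on the level, as Nr1d1 was above the 90th percentile of background in 10 rats and above the 99th in 3. The exact permutation test, two-sided, over every split of the rats into 5 and 5 gave p = 0.0079, the smallest it can give. Nr1d1 was the 1 member of 10 whose groups did not overlap, and in 0.239% of all genes every CVX-060 rat was lower and in 0.485% the groups were apart in either direction.

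Per3 had 6.97 ± 0.64 (SD, n = 5) in vehicle rats and 5.83 ± 0.60 (SD, n = 5) in treated rats, which differed by -1.14 (standard error 0.35, 95% interval -1.90 to -0.37). Its unadjusted limma p was 0.0075, and the exact permutation test gave p = 0.0397. Per3 too was above background in 2 of the 5 CVX-060 rats, so that the size of its difference rests in part on such signals. Against the 90th percentile of background Per3 was above it in 10 rats, and against the 99th in 6. Its second probe set, above background in 0 rats, gave a difference of -0.13. Nr1d2 had 9.36 ± 0.43 (SD, n = 5) and 8.77 ± 0.39 (SD, n = 5), a difference of -0.59 (standard error 0.23, 95% interval -1.10 to -0.07), with an unadjusted limma p of 0.029 and an exact permutation p of 0.0635. A second probe set of Nr1d2, whose mean signal was 9.91, gave a difference of -0.54, and its remaining probe set, above background in 0 rats, one of -0.29. With single rats left out, the unadjusted limma p of Nr1d2 rose above 0.05 in 6 of 10 fits, namely when any one of vehicle rats 3 to 5 or of CVX-060 rats 1 to 3 was omitted.

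Bmal1 and Npas2 had the largest differences towards higher levels and the widest errors. Bmal1 had 6.15 ± 1.63 (SD, n = 5) in vehicle rats and 7.25 ± 1.64 (SD, n = 5) in treated rats, which differed by 1.11 (95% interval -0.89 to 3.11, exact permutation p = 0.214), and Npas2 differed by 1.36 (95% interval -0.74 to 3.46, exact permutation p = 0.270). Bmal1 was above background in 2 rats given vehicle and 3 rats given CVX-060, so that the groups held unequal numbers of high rats, and the part of this in the differences of the other members was not tested. Clock differed by 0.32 (95% interval -0.20 to 0.83) and Cry1 by 0.53 (95% interval -0.21 to 1.28). The differences of Cry2 (-0.03, 95% interval -0.48 to 0.42), Per1 (-0.11, 95% interval -0.30 to 0.07) and Per2 (-0.59, 95% interval -1.75 to 0.57) were within the spread of the rats.

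**Figure D5:**
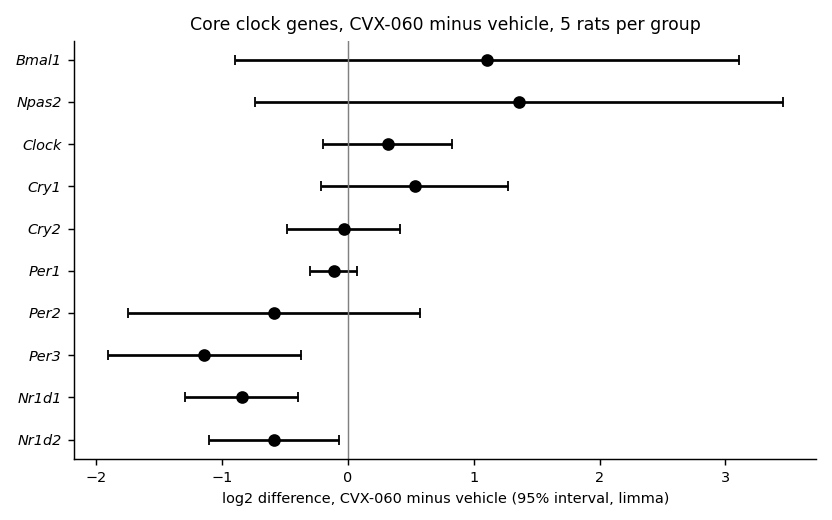
Mean log2 signal with CVX-060 less that with vehicle (x axis), with its 95% interval from limma, for the 10 clock genes. The intervals of Nr1d1, Per3 and Nr1d2 lie below 0, before adjustment over all genes, and those of Bmal1 and Npas2 are the widest.

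A fold of over 1.5 in either direction was reached by 6 of the 10 members, 2 higher and 4 lower, where 0.71% of all genes reached it, 0.302% higher and 0.408% lower. Of these 6, Bmal1, Npas2, Per3 and Nr1d1 were not above background in some rats, and Per2 and Nr1d2 lay just past that fold, at 1.501 and 1.503. Without vehicle rat 2 and CVX-060 rat 5, 6 of 10 members were at an unadjusted limma p under 0.05, as were 4.09% of all genes, and again 0 genes passed the adjusted p. The differences were then 2.07 for Bmal1, 2.40 for Npas2, 0.59 for Clock, -1.04 for Nr1d1, -1.45 for Per3 and -0.79 for Nr1d2. Leaving out these 2 rats removed 1 rat with high Bmal1 from the vehicle group and 1 with low Bmal1 from the CVX-060 group.

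The genes that act with or below the clock were read from lists beside the members. All 6 PAR bZIP and Bhlhe genes measured were lower with CVX-060, with a median of -0.35, and 0 passed the adjusted p or an unadjusted p of 0.05. Dbp differed by -1.25 (standard error 1.01), its relatives Tef by -0.57 (0.32) and Hlf by -0.31 (0.32), the repressor Nfil3 by -0.04 (0.25), and the E-box repressors Bhlhe40 by -0.20 (0.18) and Bhlhe41 by -0.38 (0.24). From the order of Bmal1, Dbp was at 5.0, Tef at 4.8, Bhlhe41 at 4.6, Hlf and Bhlhe40 at 3.8 and Nfil3 at 1.8. The median over all genes was 3.4.

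Among 14 clock regulators measured of 19 listed, the median was -0.01 with 6 higher and 8 lower. Those with the smallest p were the kinase genes Csnk1e (0.20) and Csnk1d (-0.16), with Gsk3b (-0.09) and Cipc (0.17). Csnk1e was not above background in any rat. Among 13 clock-controlled liver genes measured of 15, the median was -0.08 with 6 higher and 7 lower. The smallest p belonged to Cdkn1a (0.91), Nampt (-0.51), which makes a precursor of NAD, the P450 reductase gene Por (-0.42) and Ppara (-0.23), the last not above background in any rat. Por was at 5.0 from the order of Bmal1, and Insig2, a regulator of sterol synthesis, at 1.4. None of these genes had an unadjusted p under 0.05.

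Among inputs known to shift or mimic clock transcripts, 4 of 5 temperature-responsive genes were higher (median 0.09), with Dnajb1 (-0.16), Rbm3 (0.31), Hspa1a (0.16) and Hsph1 (0.09) having the smallest p. Of 11 glucocorticoid and fasting genes, 4 were higher and 7 lower (median -0.05), led by Klf9 (-0.29), Tat (-0.17), Mt1 (0.15) and Fkbp5 (0.55). Of 19 immediate early genes, 17 were lower and 2 higher (median -0.47), led by Klf6 (-0.82), the 1 gene of the list under an unadjusted 0.05 in limma, Egr1 (-0.73), Jun (-0.81) and Gadd45b (-0.47). None of the 3 lists held a gene past the adjusted p.

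Markers of 2 cell types had higher means with CVX-060, though 0 of them passed the adjusted p. All 9 sinusoidal endothelium markers measured were higher with CVX-060 (median 0.32), their summed log2 signal ranging from 70.8 to 76.3 in vehicle rats and 74.4 to 78.6 in CVX-060 rats. All 8 Kupffer cell and macrophage markers were higher too (median 0.25), with sums of 70.5 to 74.0 and 70.2 to 77.5. Of these, 8 of the 9 and 8 of the 8 were above background in every rat, and the remaining gene was in some. Hepatocyte markers had a median difference of 0.0016 with sums of 108.3 to 111.1 and 109.7 to 111.0, and stellate cell and myofibroblast markers one of 0.14, with 7 higher and 3 lower. Cholangiocyte, T and NK cell and B cell markers had medians of 0.04, 0.07 and -0.03. In these lists 2 of 5, 5 of 9 and 2 of 2 genes were not above background in any rat. The part of any of these cell types in the differences of the clock genes was not tested.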

How the data were processed

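Whole-liver RNA of 10 cirrhotic rats, 5 per group by the labels, was hybridised to 10 arrays. The authors deposited log2 values, which they had normalised between arrays. R 3.4.0, limma 3.38.2 and affy 1.56.0 are named in the submitters' processing notes. Their background correction and summary method are not given in the sources used here. From 31099 probe sets, 9780 without a symbol, 436 with more than 1 and 57 controls were removed. The remaining 20826 covered 14217 genes, 4525 of them more than once. Names came from the platform annotation, and 20758 probe sets matched RefSeq by gene ID. Hspa1b was matched as Hspa1a through a synonym.

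Groups were compared with limma 3.58.1 (lmFit, eBayes; R 4.3.3), and p-values were adjusted by Benjamini-Hochberg across the 14217 genes. Single genes also had an exact permutation test, two-sided, over every split of the rats. A gene was taken to split the rats where the largest gap between neighbouring values exceeded 1/3 of its range with at least 2 rats on both sides. The limma fit, with genes drawn independently of each other, and the permutation test were tested on simulated data. Other steps ran in Python 3.11.15 (scipy 1.17.1, pandas 2.3.3, numpy 2.4.6, matplotlib 3.10.9). The number of arrays limits the precision.

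The members and lists were chosen with earlier results of these data known. Named genes are the members, up to 4 genes of each pathway list by the smallest p, every PAR bZIP and Bhlhe gene, and the 5 genes most like and 5 most opposite to Bmal1 in the order of rats. Insig2, and the rank difference given for Por, were picked after their values were seen. Alternatives were another probe set per gene, every probe set, genes above the 40th percentile by mean only, renormalisation, equal medians, array weights, a trended robust prior, the replicate number as a block, rats left out, and other background percentiles. The scanner files were not used here. Over all genes, same-numbered rats correlated at -0.17 to 0.15 after group means were removed, so the numbers were not taken as pairs. For Bmal1, both rats numbered 1 and 2 were above background, both numbered 4 and 5 were not, and those numbered 3 differed. With the number as a block, its unadjusted limma p was 0.028, against 0.248 without.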

Additional observations from a re-analysis of the deposited data

Results flagged for a closer look

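Npas2 in vehicle rat 2 had a log2 signal of 7.71, where the other 4 vehicle rats lay between 3.93 and 4.93. The gap to the nearest rat was 0.734 of the range of the group. Of the 20 sets of 5 rats examined (10 genes in both groups), this was the 1 with such a distance, and chance alone gives about 1 in 20. Vehicle rat 2 is one of the 2 rats that stood apart over all genes, and Bmal1 was high in it too, at 7.95.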

How the results depend on the processing

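No gene passed an adjusted p of 0.05 under any alternative, and between 156 genes (with the filter on dim genes) and 713 (without vehicle rat 2) were at an unadjusted p under 0.05. With each rat left out in turn, the median over the 10 clock genes ranged from -0.13 (without CVX-060 rat 5) to 0.01 (without CVX-060 rat 3), the range of Bmal1 over rats from 3.51 to 3.87 and the rank difference of Bmal1 and Clock from 0 to 0.22. The members at an unadjusted p under 0.05 numbered 2 to 4 with a rat left out, against 3 with all rats, 7 with array weights and 6 without both rats that stood apart. With the replicate number as a block, 0 genes passed and 5 members were at an unadjusted p under 0.05, Bmal1 and Clock beside the former 3. The rank difference of Bmal1 and Clock was 0.8 after quantile normalization was applied again. Against the 90th percentile of background, 0 rats had Bmal1 under background in place of 5, so that the count of low rats depends on this level. Differences that changed sign were those of Cry2, 0.06 without vehicle rat 5, 0.13 without CVX-060 rat 3 (from -0.16 without CVX-060 rat 5) and 0.037 in its other probe set, and of 1 probe set of Clock below background in all rats, -0.084. Leaving out single rats moved the difference of Bmal1 between 0.73 and 1.62, that of Npas2 between 0.97 and 2.03 and that of Per2 between -0.86 and -0.10, the last without CVX-060 rat 3. The differences of Bmal1, Npas2, Clock, Cry1, Per1, Per2, Per3, Nr1d1 and Nr1d2 otherwise kept their sign, with Nr1d1 between -1.04 and -0.71, Per3 between -1.45 and -0.98 (-0.13 in its other probe set, above background in 0 rats) and Nr1d2 between -0.79 and -0.48 (-0.29 in a probe set above background in 0 rats). The other probe set of Per2 gave -0.09. Where 2 members were at an unadjusted p under 0.05 with a rat left out, Nr1d2 was the one lost, with p up to 0.0724 in 6 of the 10 fits. Npas2 had no value under the filter on dim genes. The cause of these shifts was not tested.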
